A study of Rattus norvegicus with 22 samples.

Results

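Rbm3 and Cirbp, which encode the classical cold-inducible RNA-binding proteins, and 7 genes of the splicing machinery that body temperature is known to touch (Rsrp1, Clk1, Clk4, Srsf2, Srsf3, Srsf5 and Srsf7) were followed in rat liver after inhibition of the mitochondrial respiratory chain. The 9 genes were picked by name, and all 9 were measured among the 18166 genes of the arrays. Each is read by 1 probe set that carries no other gene symbol. The 22 livers came from female Crl:CD(SD) rats, labelled as 12 weeks old, and each liver's median lobe was hybridised to 1 array. The 10 rats of the GSK932121A group had received a single intraperitoneal dose of 50 mg/kg of this complex III inhibitor, with 5 hours of treatment per the labels. The 12 rats of the vehicle group had received the same formulation without the compound, in the same volume of 10 mL/kg, and the labels give no time for them. The study dosed 12 rats per group and left out 2 treated rats with low plasma exposure. All rats carried a microchip that reads body temperature, per the labels. The temperatures of single animals were not used here, so no level below was set against one.

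In mammals, mild cooling raises the RNA and protein of Rbm3 and Cirbp, while warming lowers them. The same cooling acts on splicing through the CDC-like kinases, whose activity rises at lower temperature within the body's range. These kinases phosphorylate the serine- and arginine-rich (SR) proteins, which bind exons and recruit the spliceosome. Many SR protein genes and kinase genes contain exons or introns that, when spliced in or retained, keep the transcript from making protein. A gene-level array value adds such forms to the coding transcript and cannot tell them apart.

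Of the 9 genes, 4 rose (Rbm3, Cirbp, Srsf3 and Srsf5) and 2 fell (Rsrp1 and Clk1) at an adjusted p under 0.05 in limma. Clk4, Srsf2 and Srsf7 did not pass. Over all genes tested 12.4% passed, with 5.31% higher and 7.05% lower after GSK932121A. When only genes averaging at least 5 on the log2 scale were kept, as all 9 did, 7 of the 9 passed, beside 22.9% of all such genes. The 9 genes were chosen with earlier results of these data known, so a larger share among them supports nothing by itself. All values below are on the log2 scale of the deposited arrays, where a difference of 1 is a doubling. The median log2 difference was 0.10 over the 9 genes and -0.01 over all genes. In bulk tissue, fewer cells of a type and less RNA per cell cannot be told apart.

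**Figure D1:**
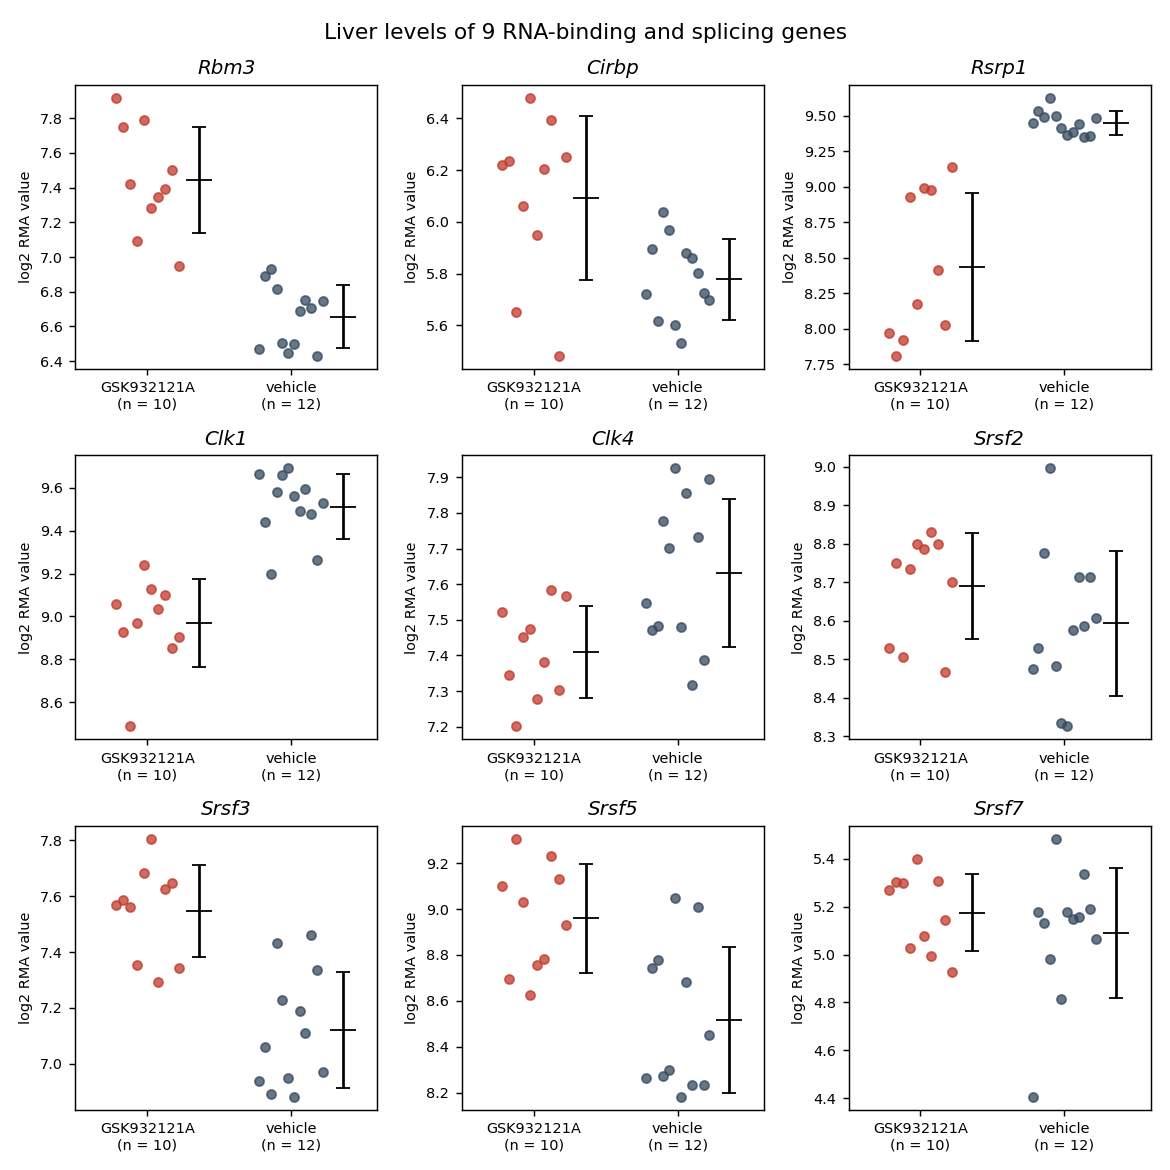
Log2 values of the 9 genes in each liver, with GSK932121A (red, n = 10) left of vehicle (blue, n = 12); each point is 1 array, and the bars give the mean and SD. The groups do not overlap for Rbm3 and Rsrp1, and the treated values of Rsrp1 spread over 7.81 to 9.14 while its vehicle values stay within 9.35 to 9.63.

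Rbm3, a small RNA-binding protein that promotes translation in cooled cells, showed the largest rise of the 9. Its log2 values ran from 6.95 to 7.92 with a median of 7.41 in GSK932121A livers, against 6.43 to 6.93 with a median of 6.70 in vehicle livers. The lowest treated liver exceeded the highest vehicle liver, so 10 of 10 were above, by a margin of 0.016 at the closest point. Over all genes, 0.457% showed such a separation upwards. Treated livers averaged 7.45 ± 0.31 and vehicle livers 6.66 ± 0.18 (SD, n = 10 and n = 12), which is 1.73-fold higher after the compound (limma, adjusted p = 5.77e-06). Rbm3 stood at place 91 of all genes by p-value. With 5 surrogate variables for hidden factors its log2 difference was 0.48 in place of 0.79 and still passed (limma, adjusted p = 0.0155). These variables held 45.5% of the variance of group. Hidden factors and treatment cannot be told apart in that share, here and below.

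Cirbp, the cold-inducible RNA-binding protein first found in cooled testis and fibroblasts, rose less and less evenly. Its log2 values ran from 5.48 to 6.48 with a median of 6.21 in GSK932121A livers, against 5.53 to 6.04 with a median of 5.76 in vehicle livers. The groups overlapped: 7 treated livers exceeded every vehicle liver and 1, replicate 23, was below all of them. Treated livers averaged 6.09 ± 0.32 and vehicle livers 5.78 ± 0.16 (SD, n = 10 and n = 12), which is 1.24-fold higher after the compound (limma, adjusted p = 0.0370). Leaving out a single liver ended this call in 12 cases, with adjusted p reaching 0.0790: vehicle replicates 1, 3, 6, 7, 11 or 12, or GSK932121A replicates 13, 14, 18, 21, 22 or 24. Neither the Welch test (0.0932), the Wilcoxon rank sum test (0.0925) nor surrogate variables (0.229) gave it.

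The measured rise of Rbm3 exceeded that of Cirbp. Per array, the log2 value of Rbm3 minus that of Cirbp averaged 1.35 ± 0.40 in GSK932121A livers and 0.88 ± 0.20 in vehicle livers (SD, n = 10 and 12). The change in this difference was 0.47, with a 95% interval of 0.20 to 0.75 (two-sided permutation test, adjusted p = 0.0044 over 8 pairs of genes). A shift common to a whole array cancels in this comparison, and the change was 0.46 to 0.48 under the renewed scalings. Probe sets can differ in how fully they register a change, and Cirbp had the lower signal.

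The promoters of Rbm3 and Cirbp are shown because both genes rose, and of the 250 bases before their starts only those of Cirbp hold any of the motifs searched. Sequences are those of RefSeq on build GRCr8, read 5′ to 3′ on the gene's strand, and motifs on either strand are in capitals (a GC box on the other strand reads CCGCCC). The Rbm3 window is chrX:17020655-17020904 on the + strand and the Cirbp window chr7:10189476-10189725 on the - strand.
Rbm3: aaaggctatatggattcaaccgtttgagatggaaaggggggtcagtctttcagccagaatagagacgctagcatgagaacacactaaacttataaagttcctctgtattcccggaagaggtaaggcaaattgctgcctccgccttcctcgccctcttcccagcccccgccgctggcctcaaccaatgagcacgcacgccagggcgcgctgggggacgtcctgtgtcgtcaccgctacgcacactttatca
Cirbp: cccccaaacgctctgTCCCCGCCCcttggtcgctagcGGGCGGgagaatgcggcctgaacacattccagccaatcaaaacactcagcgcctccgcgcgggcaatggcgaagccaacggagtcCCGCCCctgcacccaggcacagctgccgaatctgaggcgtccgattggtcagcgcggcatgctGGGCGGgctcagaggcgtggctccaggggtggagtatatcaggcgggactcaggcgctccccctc
A total of 5 motifs was searched on both strands: the mild cold response element TCCCCGCC, known from the mouse Cirbp gene, the GC box GGGCGG, the paired heat shock element GAANNTTC, the cAMP response element TGACGTCA and the ETS site CCGGAAGT. The Cirbp window holds TCCCCGCC once, starting 235 bases before the gene's start, and 4 GC boxes, of which 1 overlaps that element. The Rbm3 window holds none of the 5 motifs. Over the 33469 promoter windows of the table, 4.22% hold TCCCCGCC, 30.5% a GC box, 7.23% GAANNTTC, 1.59% TGACGTCA and 3.10% CCGGAAGT. These shares are not matched for base content: G and C make up 67.2% of the Cirbp window and a median of 51.2% over all windows. These matches describe letters in a window and do not show binding.

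Rsrp1, which encodes a little-studied protein rich in arginine and serine, fell most of the 9 genes. Its log2 values ran from 7.81 to 9.14 with a median of 8.30 in GSK932121A livers, against 9.35 to 9.63 with a median of 9.45 in vehicle livers. All 10 treated arrays lay below the lowest vehicle array, as was the case for 0.281% of all genes. Treated livers averaged 8.44 ± 0.52 and vehicle livers 9.45 ± 0.08 (SD, n = 10 and n = 12), a log2 difference of -1.02 ± 0.14 (SE) and a 2.02-fold lower level (limma, adjusted p = 1.62e-05). The SD in GSK932121A livers was 6.30 times that in vehicle livers, the widest such ratio among the 9 genes. With surrogate variables the difference was -0.46 (adjusted p = 0.00298).

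The treated values of Rsrp1 fell on either side of a gap between 8.42 and 8.93. Replicates 17, 20, 21 and 24 stood above it, at 8.93, 8.99, 8.98 and 9.14. The other 6 treated livers stood at or below 8.42, with the lowest value in replicate 14. The same 4 replicates held the 4 lowest treated values of Rbm3, at 7.09, 7.29, 7.35 and 6.95. They also held the 4 lowest of Srsf7, a dim gene that did not pass. Replicate 24 was nearest to the vehicle group for both Rbm3 and Rsrp1. For Cirbp these 4 livers were spread through the group, from the third lowest to the third highest treated value. For Clk1, Clk4, Srsf2, Srsf3 and Srsf5 they held neither the 4 lowest nor the 4 highest treated values. Replicate 20 even had the highest treated value of Srsf3, at 7.81. This grouping was noticed in the values themselves and was not tested.

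**Figure D2:**
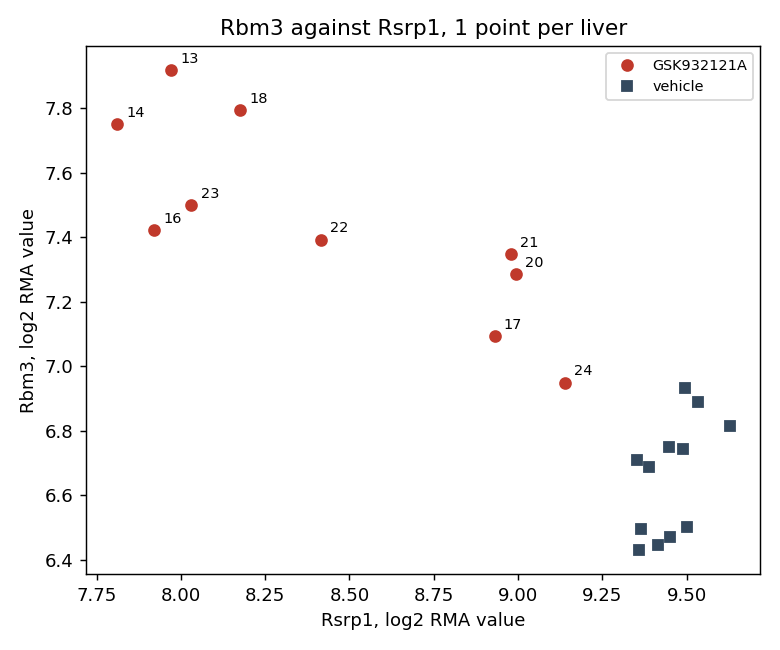
Log2 value of Rbm3 (vertical) against that of Rsrp1 (horizontal), 1 point per liver, for GSK932121A (red circles, labelled with the replicate number) and vehicle (blue squares). Treated livers with low Rsrp1 sit high for Rbm3, and replicates 17, 20, 21 and 24 lie between the other treated livers and the vehicle livers.

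Clk1, a CDC-like kinase that phosphorylates SR proteins and controls splicing of its own transcript, also fell. Its log2 values ran from 8.49 to 9.24 with a median of 9.00 in GSK932121A livers, against 9.20 to 9.69 with a median of 9.54 in vehicle livers. In 9 of 10 treated livers the value lay below the lowest vehicle value, and replicate 18 was the exception. Treated livers averaged 8.97 ± 0.21 and vehicle livers 9.51 ± 0.15 (SD, n = 10 and n = 12), a log2 difference of -0.54 ± 0.08 (SE) and a 1.46-fold lower level (limma, adjusted p = 2.79e-05). The call held with surrogate variables (adjusted p = 0.00539) and when the test asked for a change beyond 1.2-fold (0.0449).

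Clk4, the paralogous kinase with the same class of substrates, differed by less. Its log2 values ran from 7.20 to 7.58 with a median of 7.42 in GSK932121A livers, against 7.32 to 7.93 with a median of 7.62 in vehicle livers, and 3 treated arrays lay below the lowest vehicle array. The log2 difference of -0.22 had a 95% interval of -0.38 to -0.06 but did not pass after adjustment over all genes (limma, adjusted p = 0.0648). It passed when only genes averaging at least 5 (0.0380) or 7 (0.0303) were kept, and without vehicle replicate 9 (0.0311) or 11 (0.0423). The measured fall of Clk1 exceeded that of Clk4. Per array, the log2 value of Clk1 minus that of Clk4 was 1.56 ± 0.17 in GSK932121A livers and 1.88 ± 0.20 in vehicle livers (SD, n = 10 and 12). The change of -0.32 had a 95% interval of -0.49 to -0.15 (two-sided permutation test, adjusted p = 0.0044). As for Rbm3 and Cirbp, probe sets can differ in how fully they register a change, and Clk4 had the lower signal.

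The upstream windows of both kinase genes are shown beside this unequal change. The Clk1 window is chr9:67453181-67453430 on the - strand. RefSeq gives Clk4 in 2 windows, and the one shown is chr10:36025490-36025739 on the + strand, since the other holds none of the 5 motifs.
Clk1: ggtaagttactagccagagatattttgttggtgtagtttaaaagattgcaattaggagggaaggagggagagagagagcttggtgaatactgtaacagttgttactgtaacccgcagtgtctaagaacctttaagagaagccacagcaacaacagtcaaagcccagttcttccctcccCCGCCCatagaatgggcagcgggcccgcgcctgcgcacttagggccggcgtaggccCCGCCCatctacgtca
Clk4: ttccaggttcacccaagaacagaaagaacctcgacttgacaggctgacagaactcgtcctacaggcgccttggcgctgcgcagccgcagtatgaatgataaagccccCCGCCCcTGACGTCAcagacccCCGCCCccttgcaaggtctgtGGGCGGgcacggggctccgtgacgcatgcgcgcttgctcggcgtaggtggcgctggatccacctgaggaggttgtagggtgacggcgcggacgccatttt
Capitals mark 2 GC boxes for Clk1, and 3 GC boxes and the cAMP response element TGACGTCA for Clk4. That element starts 136 bases before the start of Clk4 and was found for no other gene among the 8 with a window. The window of Srsf7 holds TCCCCGCC once, overlapping 1 of its 4 GC boxes, and that of Srsf5 holds 4 GC boxes, GAANNTTC and CCGGAAGT once each. Srsf2 has 5 GC boxes and Srsf3 none of the 5 motifs. For Rsrp1 no window is shown.

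Among the SR proteins, Srsf3 and Srsf5 rose while Srsf2 and Srsf7 did not pass. Srsf3, the smallest SR protein, which acts in splicing, export and polyadenylation of RNA, had log2 values of 7.29 to 7.81 with a median of 7.58 in GSK932121A livers, against 6.88 to 7.46 with a median of 7.09 in vehicle livers. In 7 treated livers the value exceeded every vehicle value, and in the other 3 it was within the vehicle range. Treated livers averaged 7.55 ± 0.17 and vehicle livers 7.12 ± 0.21 (SD, n = 10 and n = 12), which is 1.34-fold higher after the compound (limma, adjusted p = 0.000729). With surrogate variables the call of Srsf3 was lost (adjusted p = 0.0638).

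Srsf5, known in rat as HRS and first described as an insulin- and growth-induced gene of regenerating liver, rose by a similar amount. Its log2 values ran from 8.63 to 9.31 with a median of 8.98 in GSK932121A livers, against 8.18 to 9.05 with a median of 8.37 in vehicle livers. The groups overlapped more than for Srsf3, with 4 treated livers above all vehicle livers. Treated livers averaged 8.96 ± 0.24 and vehicle livers 8.52 ± 0.32 (SD, n = 10 and n = 12), which is 1.36-fold higher after the compound (limma, adjusted p = 0.0100). In vehicle livers the values of Srsf5 were uneven, with 7 at or below 8.45 and 5 at 8.68 or above.

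Srsf2, known as SC35 and a marker of nuclear speckles, had log2 values of 8.47 to 8.83 with a median of 8.74 in GSK932121A livers, against 8.33 to 9.00 with a median of 8.58 in vehicle livers. No treated array lay outside the vehicle range. The difference of 0.10 had a 95% interval of -0.06 to 0.25 (limma, adjusted p = 0.470). Srsf7, known as 9G8, had log2 values of 4.93 to 5.40 with a median of 5.21 in GSK932121A livers, against 4.41 to 5.48 with a median of 5.15 in vehicle livers. Its difference of 0.09 had a 95% interval of -0.11 to 0.28 (adjusted p = 0.647). These levels lie near the array medians of 4.73 to 4.85, where differences can be compressed towards the background. Compression was not measured here.

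Of the 6 pairs among the 4 SR protein genes, 3 passed a test for unequal change, of which 2 involve the dim Srsf7. Measured by its probe set, Srsf2 changed less than Srsf3 by 0.33. The change in Srsf2 minus Srsf3 had a 95% interval of -0.52 to -0.14 (two-sided permutation test, adjusted p = 0.0044). The measured change of Srsf3 was 0.34 above that of Srsf7 (0.14 to 0.53, adjusted p = 0.0044) and that of Srsf5 0.36 above it (0.04 to 0.67, adjusted p = 0.0477). For both, a smaller change of Srsf7 and a signal compressed near background cannot be told apart. The call of Srsf5 against Srsf7 was lost with renewed quantile normalisation (0.0712) and on leaving out 1 liver in 15 cases, where adjusted p reached 0.0812 (vehicle replicate 5 omitted). These cases were vehicle replicates 2, 4, 5, 7, 8, 9, 11 and 12 and GSK932121A replicates 13, 16, 17, 21, 22, 23 and 24. Srsf2 against Srsf5 did not pass, with a difference in change of -0.35 (-0.68 to -0.01, adjusted p = 0.0599). It passed without vehicle replicates 6 or 10 or GSK932121A replicates 14, 18 or 20, with adjusted p down to 0.0144. The interval was -0.33 to 0.29 for Srsf3 against Srsf5 and -0.24 to 0.26 for Srsf2 against Srsf7. Differences in change within these bounds are not excluded.

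**Figure D3:**
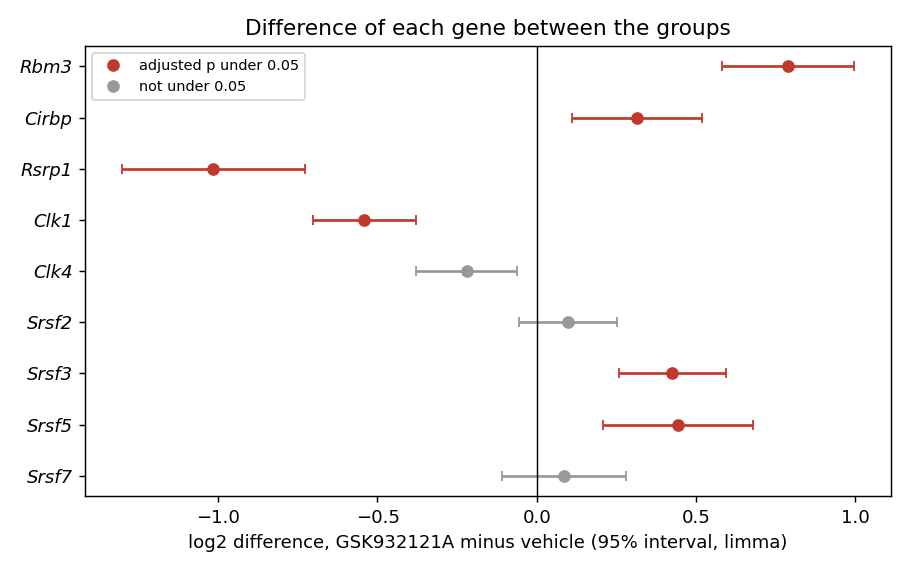
Log2 difference of each gene, GSK932121A minus vehicle, with its 95% interval from limma (n = 10 and 12); red marks an adjusted p under 0.05 and grey the rest. Rbm3 lies furthest above 0 at 0.79 and Rsrp1 furthest below at -1.02, and the intervals of Srsf2 and Srsf7 include 0.

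Relations between the 9 genes from liver to liver were tested within each group. By rule, a relation was left out where the values of either gene fell into separate clusters in that group. This concerned Rsrp1, Srsf2 and Srsf3 in treated livers and Rbm3 and Clk1 in vehicle livers. Rbm3 against Rsrp1 in treated livers, shown above, was therefore not tested. Of the 36 relations kept, none passed adjustment (permutation tests), and 4 had an unadjusted p under 0.05 by Pearson's r. Those given below are from these 36 only. These relations were chosen after the values had been seen. The closest were Rbm3 with Srsf7 in GSK932121A livers (r = 0.80, p = 0.00546, adjusted p = 0.171; rho = 0.73, p = 0.0195, adjusted p = 0.234), where r was 0.77 without the 2 livers furthest from the median of Rbm3, and Cirbp with Clk4 (r = 0.75, p = 0.0102, adjusted p = 0.171; rho = 0.79, p = 0.00859, adjusted p = 0.155), where r was 0.61 without the 2 livers furthest for Cirbp. Rbm3 and Cirbp had an r of 0.17 and a rho of 0.15 over the 10 treated livers (p = 0.644 and 0.680, adjusted p = 0.958 and 1), and an r of 0.29 without the 2 furthest.

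The genes whose deviations from the group means most resembled each of the 9 were sought among 10410 genes that averaged at least 5 on the log2 scale, over all 22 arrays. The likeness is Pearson's r, given as a description. Only the 3 highest of 10410 values are given for each gene. Such picking by itself yields high values, and none was tested. For Rbm3 these were Foxp1, a forkhead transcription factor (0.78), Pitpnm2 (0.77) and Stk10, a kinase (0.77), all of which rose. For Rsrp1 they were the ubiquitin ligase Trim25 (0.89), the F-box protein Fbxo9 (0.88) and Khdc4, an RNA-binding protein of splicing (0.87), all of which fell. The arrays behind these values share the wide spread of the treated group. The r of Rsrp1 with Trim25 was 0.92 in GSK932121A livers and 0.09 in vehicle livers. That of Rbm3 with Foxp1 was 0.90 and 0.38. Treated values of Rsrp1 and vehicle values of Rbm3 fell into separate clusters, which can by themselves shape an r.

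For Cirbp the closest were Ddx28, Trappc6a and Nfe2l1 (0.75, 0.73 and 0.72), of which Nfe2l1, a transcription factor of proteasome genes, fell by 0.21 while Cirbp rose. For Clk1 they were Tmem106b, Bmpr2 and Wdfy1 (0.71, 0.70 and 0.70) and for Clk4 Shld2, Klhl28 and Txlng (0.71, 0.67 and 0.66). For Srsf5 they were Vps41, Trip12 and Pcmtd1 (0.92, 0.89 and 0.87). The r of Srsf5 with Vps41 was 0.89 in GSK932121A livers and 0.93 in vehicle livers. A high r in both groups was not particular to Srsf5, as that of Srsf2 with C9h6orf226 was 0.81 and 0.77. Treated values of Srsf2 also fell into separate clusters, which limits the value of 0.81. For Srsf3 they were Pgm3, Psma4 and Snd1 (0.78, 0.77 and 0.77), for Srsf2 C9h6orf226, Mterf3 and Pgp (0.76, 0.74 and 0.72) and for Srsf7 Litaf, Nuak2 and Dock2 (0.77, 0.75 and 0.74). None of these 27 genes belonged to the 9 or to the lists of related genes below. Of the 27, 9 differed between the groups at an adjusted p under 0.05. When only the 10410 genes searched were fitted, 22.9% of them passed.

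Related genes of the same machinery were taken from 9 lists written from textbook knowledge. Of 190 listed genes 162 were measured, of which 18 rose and 21 fell, 24.1% in all, beside 12.4% of all genes. Most listed genes are well expressed: among genes averaging at least 5 on the log2 scale, 42 of 151 related genes passed, 27.8%, beside 22.9% of all such genes. With cyclic loess normalisation 22 rose and 14 fell, and over all genes the split was then 1117 higher and 1002 lower in place of 964 and 1280. With surrogate variables 11 of the related genes passed, and beyond a 1.2-fold change only Rbm12b and Hspa8 did. Of the 34 related genes named below, 8 kept their call with surrogate variables: Srsf6, Rbm12b, Hnrnpdl, Hnrnpd, Hnrnpab, Upf2, Hspa8 and Chordc1. All 34 kept their direction there, and for 15 the difference was smaller by over 1.5 times. The median log2 difference of the 162 was 0.01.

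Of the 9 remaining SR proteins, 2 passed, a share near the background among well-expressed genes. Srsf4 (1.36-fold, adjusted p = 0.00178) and Srsf6 (1.21-fold, adjusted p = 0.0210) rose and none fell, with a median log2 difference of 0.06. Among 9 other kinases that act on SR proteins or related substrates none rose, and Hipk2 (-0.34), Dyrk1b (-0.30) and Clk3 (-0.21) fell, with a median of -0.14. The share was 33.3%, or 37.5% of those averaging at least 5, beside 22.9% of all such genes. Clk3 no longer passed in 12 cases of leaving out 1 liver (largest adjusted p = 0.0889, for GSK932121A replicate 13). Of 21 SR-related and speckle genes 2 rose and 3 fell, 23.8% (28.6% of those averaging at least 5). Among them were the paralogous cyclins L, partners of splicing kinases. Ccnl1 rose 1.69-fold (limma, adjusted p = 0.00236) and Ccnl2 fell 1.28-fold (adjusted p = 0.00572). With surrogate variables neither passed, at 0.33 for Ccnl1 (adjusted p = 0.358) and -0.15 for Ccnl2 (adjusted p = 0.488). Snrnp48, a subunit of the minor spliceosome, fell 1.31-fold, Luc7l3 fell 1.26-fold and Thoc1 rose by 0.27 on the log2 scale. Luc7l3 no longer passed in 14 such cases and Thoc1 in 10 (largest adjusted p = 0.0893 for GSK932121A replicate 14 and 0.0643 for GSK932121A replicate 16).

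Of 28 measured genes of the RBM family, to which Rbm3 belongs by its RNA recognition motif, 5 rose and 6 fell, 39.3%. The share was 42.3% of those averaging at least 5, beside 22.9% of all such genes. It was 30% of those averaging at least 7, beside 29% of all such genes. Rbm12b fell 2.17-fold, with 8 of 10 treated arrays below the lowest vehicle array (limma, adjusted p = 0.000304). Its SD was 0.72 in GSK932121A livers and 0.24 in vehicle livers, and its log2 difference was -0.34 with surrogate variables in place of -1.12. Rbm5 and Rbm12 fell 1.35-fold and 1.25-fold, and Rbm34, Rbm7 and Rbm18 rose 1.40-fold, 1.29-fold and 1.24-fold. Rbm34, with a mean of 4.89 in vehicle livers, lay near the array medians, as did Snrpf below (4.81). Of 23 hnRNP genes, which often oppose SR proteins in splicing, 4 rose and 2 fell, 26.1% (30.4% of those averaging at least 5). The rises were Hnrnpdl, Hnrnph2, Hnrnpd and Hnrnpab, by 1.39-fold to 1.22-fold. The falls were Hnrnpm by 1.29-fold and Hnrnpll by 1.16-fold. Hnrnpll no longer passed in 11 cases of leaving out 1 liver (largest adjusted p = 0.0693, for GSK932121A replicate 23). Of 37 core spliceosome genes 4 rose (Sf3b1, Snrpf, Snrpa1 and Prpf8, by 1.36-fold to 1.17-fold) and 1 fell (Snrnp27, 1.21-fold, not passing in 8 cases of leaving out 1 liver, largest adjusted p = 0.0767 for GSK932121A replicate 23), a share of 13.5% (16.2% of those averaging at least 5, beside 22.9% of all such genes).

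Of 12 genes of nonsense-mediated decay, the pathway that removes SR transcripts with a poison exon, only Upf2 passed, falling 1.39-fold (limma, adjusted p = 0.000127). The share was 8.33%, or 11.1% of those averaging at least 5, beside 22.9% of all such genes. Of 7 cold-shock domain genes, relatives of the bacterial cold shock proteins, only Carhsp1 passed, falling 1.36-fold (limma, adjusted p = 0.00587). The share was 14.3%, or 25% of those averaging at least 5. Among 17 heat-shock genes, many of which warming raises, Hspa8 (1.53-fold), Chordc1 (1.48-fold), Dnaja1 (1.35-fold) and Dnajb1 (1.30-fold) fell and Hspb8 rose 1.44-fold. The share that passed was 29.4%, or 31.2% of those averaging at least 5. The call of Hspb8 was lost with the Welch test (adjusted p = 0.0533), the Wilcoxon test (0.0685) and surrogate variables, where its log2 difference was 0.06 (0.833) in place of 0.53. All 10 treated arrays lay below the lowest vehicle array for Hspa8, the constitutive HSC70 chaperone, as for Rsrp1.

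**Figure D4:**
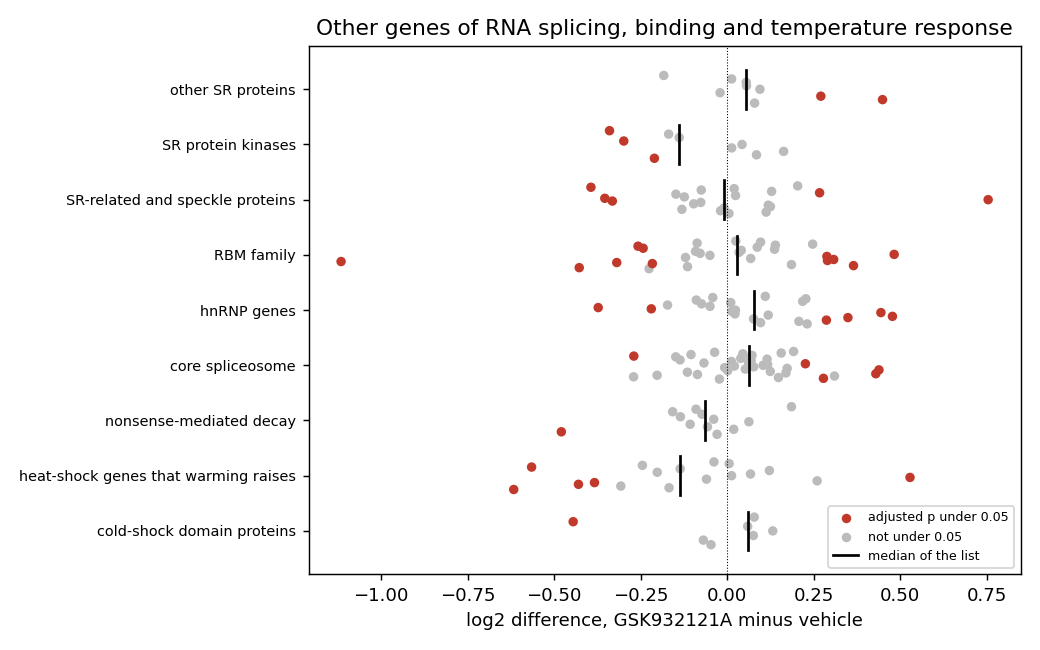
Log2 difference, GSK932121A minus vehicle, of each measured gene in the 9 lists of related genes; red points passed at an adjusted p under 0.05 and vertical bars mark the list medians. Rises and falls stand side by side in most lists, and Rbm12b at -1.12 and Ccnl1 at 0.75 lie furthest out.

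The tissue label held: the 6 measured hepatocyte markers had mean log2 values of 8.28 (Serpina1) to 13.4 (Alb), of which Cps1 rose by 0.32. Of 27 measured markers of bile duct, Kupffer, endothelial, stellate, blood and erythroid cells, Cd163 (0.36 higher) and Lyve1 (0.22 higher) passed. The share over all genes was 12.4%. The log2 summed level of each of these marker lists overlapped between the groups. For Kupffer cells it was 10.1 to 10.7 in GSK932121A livers and 9.96 to 10.8 in vehicle livers. Such overlap is common, as only 0.457% of all single genes separated upwards and 0.281% downwards. Erythroid cells were represented by Slc4a1 alone. The part of these cell types in the changes above was not tested. No pair of arrays held identical values, and the correlation between arrays across genes, which are not independent replicates, was 0.971 to 0.990.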

How the data were processed

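RNA from the median lobe of 22 rat livers was labelled with a whole-transcript kit and hybridised to 1 Affymetrix array each, per the labels. The deposited log2 values were made by the authors with RMA, per the submitters' processing notes, which corrects background, normalises between arrays and summarises probes. The sources used here give neither its software version nor a genome build. Normalising between arrays removes a shift common to all genes. Precision rests on the number of arrays.

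The platform annotation gave 1 gene symbol to 18511 of 36685 probe sets, several to 575 and none to 17599. Of the first, 18394 matched a RefSeq gene by Entrez identifier and 0 symbols changed. The probe set with the highest mean stood for a gene, giving 18166 genes, which were fitted together in limma 3.58.1 (R 4.3.3) with group as the only term. Benjamini-Hochberg adjustment ran over all genes, with a threshold of 0.05. Differences are GSK932121A minus vehicle, and intervals cover 95%. Pairs of genes were compared by the per-array difference, with 100000 resamples (Python 3.11.15, numpy 2.4.6, pandas 2.3.3, scipy 1.17.1; plots, matplotlib 3.10.9), and p-values adjusted over 8 pairs. The labels give no batch.

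The genes and lists were chosen with earlier results of these data known. Named were all 9 genes, at most 6 called genes of each list with the largest difference, and the 3 genes most like each of the 9. The fit was tested on simulated data. Alternatives were 3 renewed scalings, other probe set rules, filters at a mean of 5 or 7, array weights, an intensity trend with robust variance, Welch and Wilcoxon tests, a 1.2-fold threshold, 5 surrogate variables (limma's wsva, which held 45.5% of the variance of group) and each array left out.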

Additional observations from a re-analysis of the deposited data

Results flagged for a closer look

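In the 10 treated livers, 43 genes named above were examined for a value far from the others, both at the low and at the high end, and 3 values stood apart by Dixon's test. Chance flags about 1 in 20 such groups. Clk1 was at 8.49 in GSK932121A replicate 16, below the 8.85 to 9.24 of the other treated livers. Without this array its log2 difference was -0.49 in place of -0.54 (limma, adjusted p = 2.99e-05). Hnrnpll was at 8.42 in replicate 24, above the 7.86 to 8.15 of the others, and its difference without this array was -0.26 in place of -0.22 (adjusted p = 0.00582). Carhsp1 was at 7.29 in replicate 13, below the 7.78 to 8.32 of the others, and its difference without this array was -0.37 in place of -0.45 (adjusted p = 0.0102).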

How the results depend on the processing

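The 6 calls among the 9 genes became 3 (Rbm3, Rsrp1 and Clk1) against a fold change of 1.2, and 4 with surrogate variables, where Cirbp and Srsf3 dropped out. Under the remaining 11 settings the count was 5 to 7, and 5 to 7 with any array left out. The calls of Rbm3, Rsrp1 and Clk1 held in all 35 alternatives run. The 39 calls among related genes became 2 against a fold change of 1.2 and 11 with surrogate variables, and were 33 to 40 with any array left out. Over all genes the calls were 313 and 603 under these same settings, in place of 2244. The cause of the drop with surrogate variables was not tested. Among the pairs of genes, the unequal change of Srsf5 and Srsf7 lost its call with renewed quantile normalisation (0.35, adjusted p = 0.0712). With any array left out the change was 0.30 to 0.43 for Srsf5 minus Srsf7 and -0.42 to -0.29 for Srsf2 minus Srsf5. No named gene or pair reversed a call. No paired analysis was possible because the groups share no replicate numbers. Dim genes such as Srsf7, near the array median, may be limited by background, which was not measured.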
